A study of Drosophila melanogaster with 3 samples.

Results

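The Dpp signalling genes described here are 10 protein-coding genes: dpp, gbb, sog, tkv, put, Mad, Med, Dad, shn and brk. They were chosen by name and not by a rule on measured values, but with earlier results of these data known. All 10 were found in the Ensembl gene annotation for the dm6 assembly, out of 13945 protein-coding genes on the 6 main chromosome arms. The binding data were peaks from chromatin immunoprecipitation with sequencing of unpg, a homeodomain transcription factor, in whole Drosophila melanogaster embryos of 4 to 16 h. The embryos came from a transgenic strain, unpg-GFP, that stably carries unpg with GFP fused at its C terminus; the sample descriptions name an anti-GFP antibody, while the antibody field names unpg. The 3 samples are biological replicates of this 1 group, with the numbers 3, 4 and 5, and no conditions could be compared. What drives the fusion and which cells make it is not stated in the sources used here, and each list mixes the chromatin of all embryonic tissues. Precipitations from untagged embryos were not analysed here, so the background of the precipitation is not known.

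Decapentaplegic (Dpp) is the fly homologue of the vertebrate bone morphogenetic proteins, secreted ligands that act at a distance from their source. A ligand dimer joins type I and type II receptor kinases, the type I receptor phosphorylates the Smad protein Mad, and Mad enters the nucleus with Medea. In the embryo the pathway is known for patterning the dorsal ectoderm, and later for guiding the migration of tracheal branches, forming the midgut and specifying dorsal mesoderm. Many of its targets are switched on indirectly, because Mad, Medea and Schnurri together silence brk, whose product represses those targets.

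A summit is the base at which the authors' peak caller placed the top of a peak. A summit was counted for a gene when it lay inside the annotated gene span, or when that gene's transcription start site (TSS) was the nearest of any protein-coding gene and within 20 kb; the DNA that meets this rule is called the gene's territory. The lists were 30000 peaks in each replicate, 30000 in the pooled replicates, and 7176 in the list that the authors thresholded by the irreproducible discovery rate (IDR). Rank 1 is the highest deposited signal score within a list. Read counts are not in these lists, so the depth behind a peak is unknown.

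Of the 10 genes, 7 carried IDR summits, 51 in all: shn 16, tkv 12, sog 8, Dad 6, brk 4, dpp 3 and Mad 2. The other 3, gbb, put and Med, had none. Under the same rule 29.1% of all protein-coding genes had 1 or more IDR summits, and 33.7% of the protein-coding genes whose territory was at least as long as that of gbb, the shortest of the 10 at 2.73 kb. The share was higher among genes with long territories. In the decile of territory length that holds dpp, sog, tkv and shn it was 59.1%. For the decile of brk and Dad it was 45.8%, and for that of Mad 38.1%. Among the 7176 strongest peaks of each replicate, 7 of the 10 genes had a summit in replicate 3, against 30.4% of all protein-coding genes. In replicate 4 it was 8 genes against 29.6%, and in replicate 5 again 8 against 30.1%; the eighth was put in both. These top lists placed 49, 48 and 53 summits at the genes (50 ± 2.65, SD, n = 3). In the longer pooled list 9 genes had a summit, all but gbb, where 47.4% of protein-coding genes had one. The genes were chosen with earlier results of these data known, so these counts carry no test.

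The windows below show the DNA at the best-ranked IDR summit of each gene for which a window is printed, since these are the sites on which the account of each locus turns. Each runs 50 bp to either side of the summit, on the plus strand of dm6, and capitals mark any match, on either strand, to 10 short words searched for: TAATTA and CAATTA for homeodomain proteins, GGCGCC and GGCGTC as GC-rich words of the kind Brinker and Mad bind, GTCTAGAC for Smads, CAGGTA for the pioneer factor Zelda, AGATAAG for GATA factors, GAGAGAG for the GAGA factor, TATCGATA for the replication-related element factor, and AATATT, included because earlier work on these lists found it over-represented at summits.
dpp, intron, chr2L:2433605-2433705: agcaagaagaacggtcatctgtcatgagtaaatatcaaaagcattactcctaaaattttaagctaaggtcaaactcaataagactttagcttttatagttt
sog, intron, chrX:15619442-15619542: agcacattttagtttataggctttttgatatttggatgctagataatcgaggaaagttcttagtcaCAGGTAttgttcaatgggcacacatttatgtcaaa
tkv, intron, chr2L:5238328-5238428: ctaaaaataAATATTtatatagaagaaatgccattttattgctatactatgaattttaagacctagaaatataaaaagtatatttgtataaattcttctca
Mad, intron, chr2L:3153360-3153460: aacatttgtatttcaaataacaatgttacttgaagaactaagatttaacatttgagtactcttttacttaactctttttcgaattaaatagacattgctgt
Dad, intron, chr3R:17065097-17065197: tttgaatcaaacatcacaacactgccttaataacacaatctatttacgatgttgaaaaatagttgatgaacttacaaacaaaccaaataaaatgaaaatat
brk, upstream, chrX:7307136-7307236: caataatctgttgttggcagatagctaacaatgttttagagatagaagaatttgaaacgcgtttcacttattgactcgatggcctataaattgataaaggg
None of these 6 windows held TAATTA or CAATTA. Their GC content ran from 18.8% at tkv to 34.7% at brk, against a median of 42.6% for windows of 101 bp tiling the 6 arms.

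**Figure D1:**
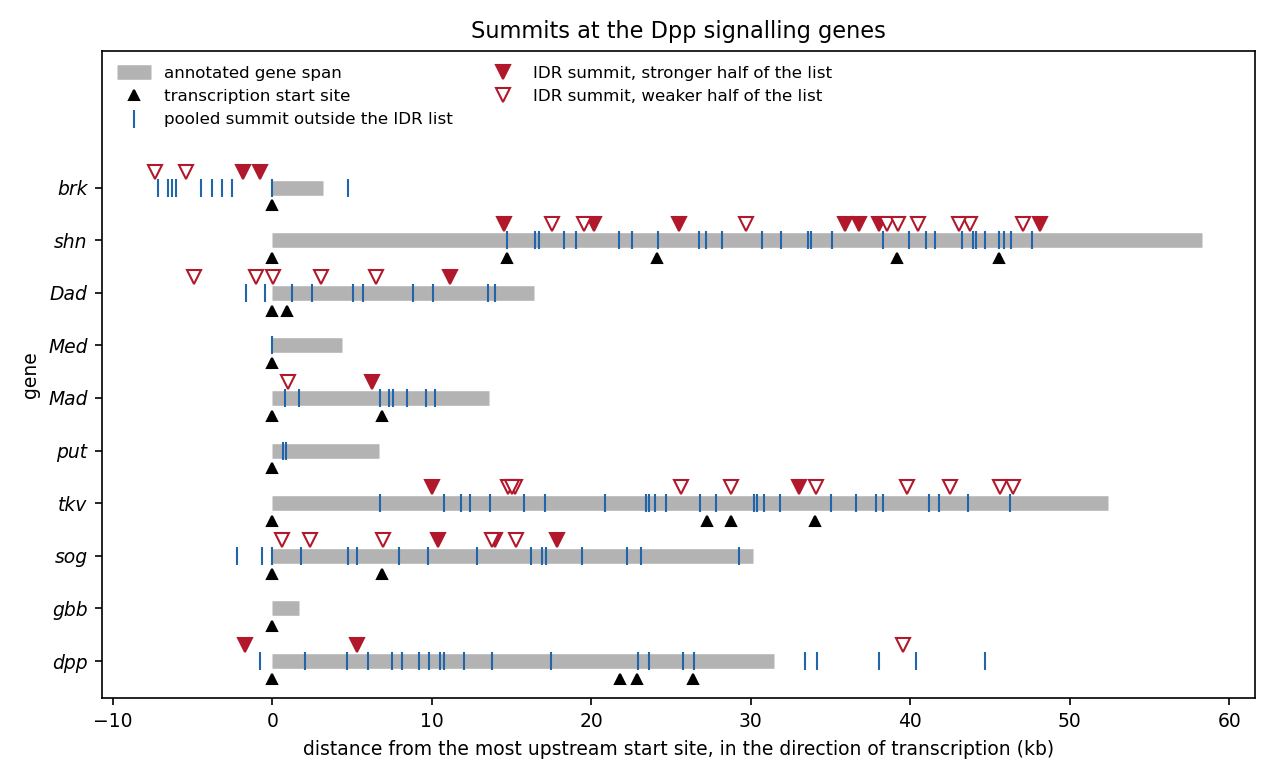
Summits at the 10 genes, each drawn from its most upstream start site (x axis, kb, in the direction of transcription). Grey bars are gene spans, black triangles start sites, red triangles IDR summits (filled where they are among the 3588 strongest), and blue ticks pooled summits outside the IDR list; the 16 IDR summits of shn lie 14507 to 48138 bp into the gene, those of brk lie upstream of it, and gbb has none of either kind.

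The ligand gene dpp, which encodes the morphogen itself, lies at chr2L:2428372-2459823 on the plus strand with 4 annotated start sites. Its best IDR summit was in its intron 5283 bp downstream of the most upstream TSS, with an IDR rank of 826; replicates 3, 4 and 5, always given in this order, ranked it 796, 740 and 1157. The next lay in intergenic DNA 1715 bp upstream of the same TSS, at rank 2034, with ranks 2121, 2107 and 2263 (2164 ± 86.3, SD, n = 3), the closest agreement between replicates of the 3 sites. The last lay 13165 bp beyond the most downstream TSS, past the 3′ end of the gene, at rank 5660; it ranked 3758 in replicate 3, 7777 in replicate 4 and 13328 in replicate 5, so only replicate 3 had it among its 7176 strongest.

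In the pooled list dpp had 25 summits, of which 22 were outside the IDR list: 13 in introns, 5 in intergenic DNA, 2 in promoters, 1 in a 5′ UTR and 1 in a noncoding gene. The best of these 22 ranked only 9061 in the pooled list. With 0.637 IDR summits per 10 kb of its 47.1 kb territory, dpp had the lowest density of the 7 genes with a summit; the decile of genes with the longest territories had 0.461 per 10 kb, and 32.9% of that decile had 3 or more summits. The count at dpp fell to 1 when start sites of noncoding genes were allowed to claim summits too, and to 1 inside the gene span alone.

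The other ligand gene, gbb (glass bottom boat), whose product acts alongside Dpp in wing and neuromuscular growth, had no summit in any of the 5 lists. It is a short gene of 1686 bp. In the length decile of genes with territories of similar length, 2338 to 3077 bp, 18.2% had an IDR summit.

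The gene sog encodes Short gastrulation, the homologue of vertebrate Chordin, which binds Dpp in the extracellular space and carries it dorsally. It lies at chrX:15603283-15633434 on the minus strand. Its 8 IDR summits were all inside the gene: 6 in introns, 1 in the promoter of the downstream start site and 1 in a 5′ UTR. The strongest was 13942 bp into the gene, at rank 980, and ranked 1008, 1061 and 1080 in the replicates (1050 ± 37.3, SD, n = 3). The next were at rank 1663, 17839 bp into the gene, with replicate ranks 1889, 1551 and 1624, and at rank 1815, 10383 bp into the gene, with ranks 1425, 2825 and 2029. The fourth by rank, 3636, held TAATTA and AATATT in its window. These 4 intronic summits lay within 7456 bp of each other. The third differed most between replicates among the 3 best, and the first least.

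The weaker sog sites were less even. The summit 204 bp from the strongest one ranked 5691 in replicate 3, 5890 in replicate 4 and 22891 in replicate 5, the widest absolute difference in rank among the 50 sites with a peak in every replicate; its ratio of worst to best rank, 4.02, was second to the 4.75 of a shn site. The promoter summit, 52 bp downstream of its TSS, ranked 13463, 5086 and 5462. When IDR peaks were required to be among the top peaks of both remaining replicates, 5 sog summits were left without replicate 3, 5 without replicate 4 and 6 without replicate 5.

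The type I receptor gene tkv (thickveins), which encodes the kinase that phosphorylates Mad, lies at chr2L:5219000-5271384 on the minus strand and had 12 IDR summits, all inside its span: 10 in introns and 2 in promoters of internal start sites. The strongest, rank 1429, was 1016 bp upstream of the most downstream TSS, with replicate ranks 1860, 1042 and 1610. The second, rank 2619, lay 9978 bp into the gene and ranked 2389, 2550 and 4188. The third, rank 3731, ranked 4623, 3892 and 3512, and the fourth, rank 4424, was in the promoter 30 bp upstream of an internal TSS, with ranks 4616, 4516 and 4689 (4607 ± 86.9, SD, n = 3). This last window was the only 1 of the 51 that held TATCGATA, a word found in 0.92% of all IDR windows. Across the replicates' top lists tkv had 9.33 ± 0.577 summits (SD, n = 3), and 2.72% of the decile of genes with the longest territories had 12 or more.

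Most tkv sites were weak: 10 of 12 were outside the 3588 strongest IDR peaks. Of the 12, 6 lay nearer to the start site of another gene, 4 to Cyp4ac1 and 2 to TpnC25D, both within the tkv span, so assignment by nearest start site alone left 6. The count was 7 without replicate 3, 5 without replicate 4 and 7 without replicate 5, again with top peaks required in both of the others. A group of 3 weaker summits spanned 473 bp of an intron; 2 of them overlapped a single peak in replicates 4 and 5, and 1 had no peak in replicate 3, so the 3 are not independent sites in every list.

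The type II receptor gene put (punt), which encodes the partner kinase, had no IDR summit. It lies at chr3R:14619030-14625703 on the minus strand. Its best pooled summit was intronic, 841 bp downstream of the TSS, at rank 9348. Replicates 4 and 5 each had a stronger peak further in, at ranks 2564 and 2268, with summits 1446 and 1479 bp downstream of the TSS. Replicate 3, the pooled list and the IDR list had no peak there. The top lists thus gave 0, 1 and 2 summits in replicates 3, 4 and 5 (1 ± 1, SD, n = 3). In the decile of genes with territories of similar length to put, 23.7% had an IDR summit.

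The Smad gene Mad, which encodes the transcription factor activated by the receptors, lies at chr2L:3146056-3159643 on the minus strand and had 2 IDR summits, both intronic. The first was among the strongest sites at these genes, rank 399 of 7176, and lay 657 bp upstream of the downstream TSS; it ranked 410, 339 and 462 in the replicates (404 ± 61.7, SD, n = 3). The second lay 960 bp downstream of the upstream TSS at rank 4990, with ranks 5546, 5887 and 4331. The replicates' ranks for the first site, 339 to 462, and for the second, 4331 to 5887, did not overlap. The IDR ranks that order the 2 sites rest on the same replicates, so this is no independent check. In the decile of genes with territories of similar length, 18.1% had 2 or more IDR summits.

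The co-Smad gene Med (Medea) had no IDR summit and 1 pooled summit, in its promoter exactly at the annotated TSS, at pooled rank 11952. That position, chr3R:31611046, is also inside the overlapping gene CycG, so the peak cannot be given to Med alone. The best peaks overlapping it ranked 8464, 13797 and 11437 in the replicates. Summits inside the Med territory were found in replicate 3, at rank 8464, and in replicate 5, at rank 15033, and none in replicate 4. In the decile of genes with territories of similar length, 22.9% had an IDR summit.

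The gene Dad (Daughters against dpp) encodes an inhibitory Smad that is itself induced by the pathway. It lies at chr3R:17054007-17070408 on the plus strand and had 6 IDR summits. Its strongest was intronic, 11140 bp into the gene, at rank 225, and the replicates placed it close together, at 229, 239 and 221 (230 ± 9.02, SD, n = 3). The nearest start site to it is that of Ns1, 7528 bp away, so assignment by nearest start site alone would have missed it. The other 5 were far weaker, at ranks 3841 to 6304. Of these, 2 were intergenic, 4906 and 1038 bp upstream, with replicate ranks 6142, 3959 and 2972 for the first and 4708, 5696 and 3433 for the second. Another was in the promoter 31 bp downstream of the TSS, ranking 5761, 4999 and 4590. At 2.77 IDR summits per 10 kb Dad had the highest density of the 10 genes, against 0.510 in the decile of genes with territories of similar length, of which 1.94% had 6 or more.

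The gene shn (schnurri) encodes the large zinc finger protein that joins Mad and Medea on silencer elements. It lies at chr2R:11159086-11217394 on the plus strand with 5 start sites. It carried 16 IDR summits, and only 6 of the 13945 genes had more; the replicates' top lists gave 17, 17 and 18 (17.3 ± 0.577, SD, n = 3). Of the 16, 14 were intronic and 2 in promoters of internal start sites. They lay 14507 to 48138 bp into the gene, over 33631 bp, with a median gap of 1238 bp. None lay upstream of these, around the first start site.

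The strongest shn site, 1328 bp downstream of the third start site, was also the strongest of all 51, at rank 193, with replicate ranks 212, 170 and 195 (192 ± 21.1, SD, n = 3). The next 3 lay within 2073 bp of each other upstream of the fourth start site: rank 922 with replicate ranks 1363, 768 and 954, rank 1188 with ranks 1656, 1055 and 961, and rank 1301 with ranks 1020, 1190 and 1699. The promoter summit 210 bp upstream of the second start site, rank 2218, differed more, at 5217, 1525 and 1099, the highest ratio of worst to best rank at these genes (4.75). In all, 7 of the 16 were among the 3588 strongest IDR peaks, and 13 to 14 were left when a replicate was left out. The density was 2.65 IDR summits per 10 kb.

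The gene brk (brinker) encodes the repressor of Dpp targets. It is a short gene at chrX:7307939-7311132, plus strand, and all of its 4 IDR summits lay upstream of it. The strongest, at rank 1183, was 753 bp upstream of the TSS and ranked 959, 1216 and 1639. The second, 1873 bp upstream at rank 2671, ranked 2395, 2340 and 3239. The third, 5416 bp upstream at rank 3722, ranked 3209, 4593 and 6172, and the fourth, 7392 bp upstream at rank 5493, ranked 4114, 6246 and 6893. Each of the 4 was among the 7176 strongest peaks of every replicate. The annotation classes them as intronic because brk lies inside the span of CG1677, a gene annotated over 124709 bp on the opposite strand. The rule therefore counts all 4 for CG1677 as well, and they cannot be given to brk alone. Inside the brk span itself there was no IDR summit.

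Silencer elements, the sites at which Mad, Medea and Schnurri are known to assemble, were matched by their published pattern on both strands of the 6 arms. The pattern occurred 372 times, 9 times in the territories of the 10 genes: 7 at brk and 1 each at sog and shn. Only CG1677, whose span holds all 7 brk matches, had more. The brk matches are shown because the pathway is known to act on brk through elements of this pattern. Which of the 7 matches act in that way was not examined here. The matches lay 2169 to 8210 bp upstream of the brk TSS. They are printed 5′ to 3′ on the strand that matches, capitals marking the positions that the pattern constrains.
brk match 1, plus strand, chrX:7299721-7299736: GACGaCagagtGTCTG
brk match 2, plus strand, chrX:7299753-7299768: GGCGaCattctGTCTG
brk match 3, minus strand, chrX:7299904-7299919: GACGtCgctctGTCTG
brk match 4, minus strand, chrX:7300274-7300289: GGCGcCtctatGTCTG
brk match 5, plus strand, chrX:7301300-7301315: GGCGtCcgctcGTCTG
brk match 6, plus strand, chrX:7302752-7302767: GGCGgCcaaatGTCTG
brk match 7, minus strand, chrX:7305762-7305777: GACGaCggactGTCTG
The distance from each match to the nearest IDR summit was 167, 199, 350, 265, 761, 237 and 296 bp, in that order. Matches 1 to 3 were nearest to an IDR summit 8377 bp upstream of brk, which the rule gives to unc-119 and CG1677 rather than brk, at rank 4005 with replicate ranks 4283, 4214 and 3500. Match 6 was nearest to the third brk summit and match 7 to the second. Matches 4 and 5 were nearest to the fourth brk summit. The strongest brk summit was 1416 bp from the nearest match. Within 250 bp of an IDR summit lay 3 of the 7 brk matches, while 13.5% of the brk territory lay that close to one. Over the 6 arms 4.03% of the 372 matches did, against 2.66% of all bases. A match is a description of the letters and does not show that the element was bound here.

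**Figure D2:**
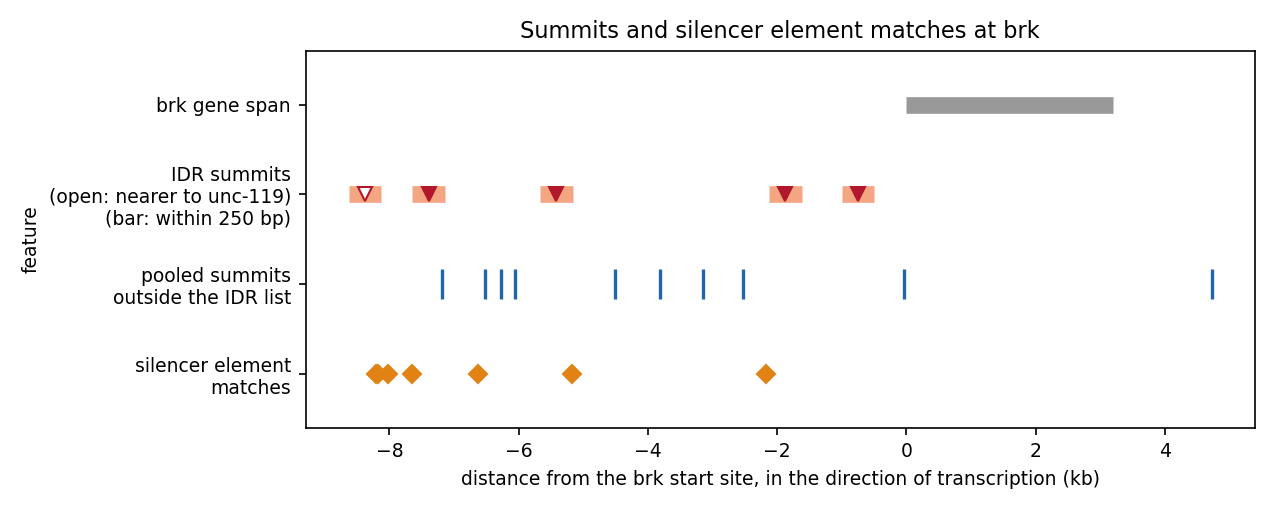
Positions upstream of brk (x axis, kb from its start site in the direction of transcription) of IDR summits with a bar of 250 bp to either side, pooled summits outside the IDR list, and the 7 silencer element matches. The matches lie from 2169 to 8210 bp upstream, and 3 of them are within 250 bp of an IDR summit, 2 of these at the outermost one (open), which is nearer to unc-119.

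Across the 7 genes, summits were mostly intronic. Introns held 40 of the 51 (78.4%, 95% Wilson interval 65.4 to 87.5; 82.6% ± 3.02 in the replicates' top lists, SD, n = 3), 36 of them in the gene's own introns and 4 in CG1677 at brk. Of all 7176 IDR summits 41.6% were intronic. Promoters, within 500 bp of a TSS, held 6 (11.8%, 5.51 to 23.4; 8.16, 12.5 and 9.43% in the top lists of replicates 3, 4 and 5), against 36.7% of all IDR summits: 2 each at tkv and shn, and 1 each at sog and Dad. Intergenic DNA held 4, and the 5′ UTR 1. Coding sequence and 3′ UTRs held 0 of 51, which allows a share of up to 5.88% by the limit of 3 counts for a count of 0, and up to 7.005% by the Wilson interval. The rule counts every summit inside a gene, so long introns add to the intronic share by its construction, and whether it differs from that of other long genes was not tested. With promoters of 1000 bp the promoter share was 21.6%.

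**Figure D3:**
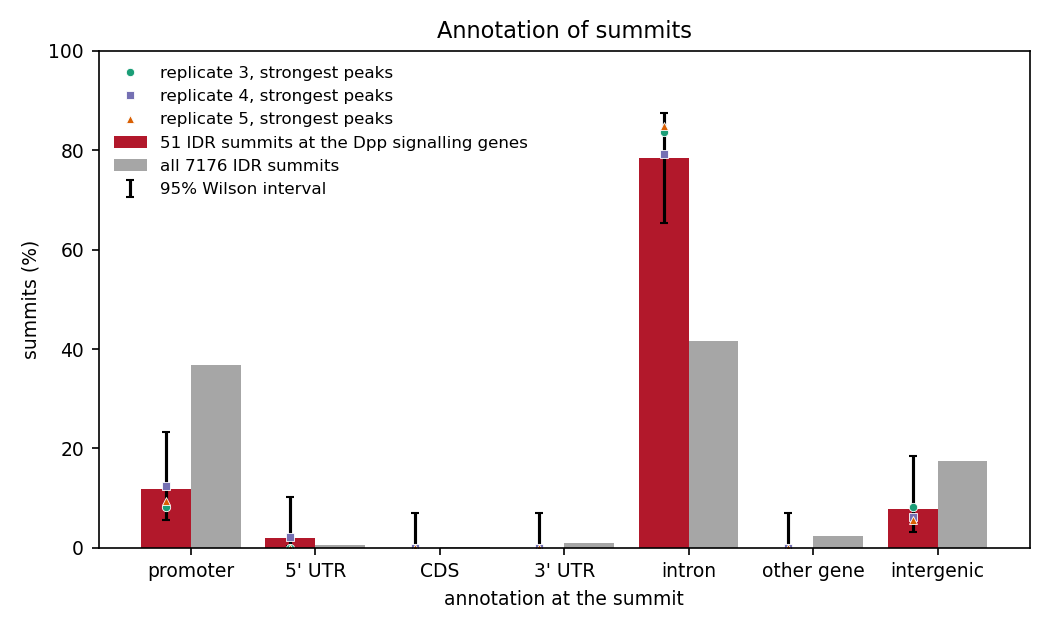
Share of summits (y axis, %) by annotation for the 51 IDR summits at the 10 genes (red, with 95% Wilson interval) and for all 7176 IDR summits (grey). Symbols give the replicates' strongest peaks at the same genes; introns hold 78.4% against 41.6%, and promoters 11.8% against 36.7%.

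The genes carried more IDR summits for their length than the arms at large. Their territories, 264 kb in all, held 1.93 IDR summits per 10 kb, against 0.574 over the territories of all protein-coding genes. The density ranged from 1.46 per 10 kb at Mad to 2.77 at Dad for 6 of the genes, with dpp well below at 0.637 and gbb, put and Med at 0. The 3 genes with none had the shortest, at 2.73, 4.36 and 6.70 kb. The order of counts followed the order of territory length except at dpp, which had the third longest territory and the sixth highest count. A density over genes chosen with results known is a description and was not tested.

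**Figure D4:**
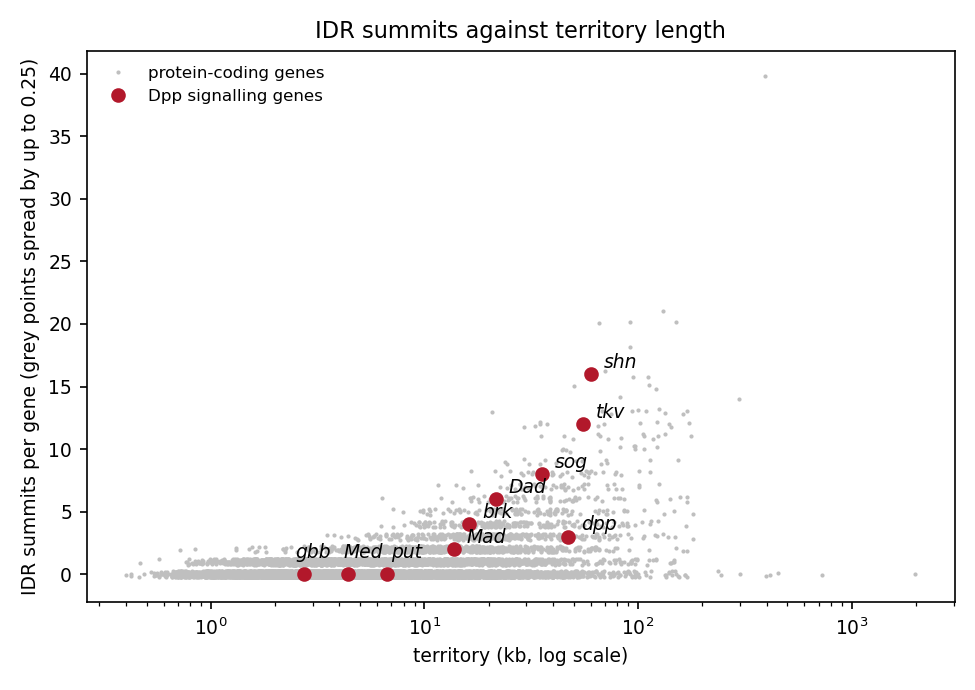
IDR summits per gene (y axis) against territory length (x axis, kb, log scale) for all protein-coding genes (grey) and the 10 Dpp signalling genes (red). shn has 16 summits in 60.4 kb and tkv 12 in 55.4 kb, while dpp has 3 in 47.1 kb.

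The sites were spread over the whole range of the IDR list. The median rank of the 51 was 4424, against 3588.5 for all IDR peaks, and 18 were among the 3588 strongest. The best were at shn, Dad and Mad, at ranks 193, 225 and 399, and the next was the dpp intron at 826. Of the 51, 50 overlapped a peak in each of the 3 full replicate lists, and 34 overlapped a top peak in all 3 (66.7%, 95% Wilson interval 53.0 to 78.0), against 70.4% of all IDR peaks. The ratio of the worst to the best replicate rank had a median of 1.66. It was under 1.5 at 18 sites and over 2 at 10. The ratio was not worked out for all IDR peaks. The best site of each gene had a ratio between 1.07 at sog and 1.79 at tkv. Since the IDR list was made from the replicate lists, this overlap is not an independent check.

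**Figure D5:**
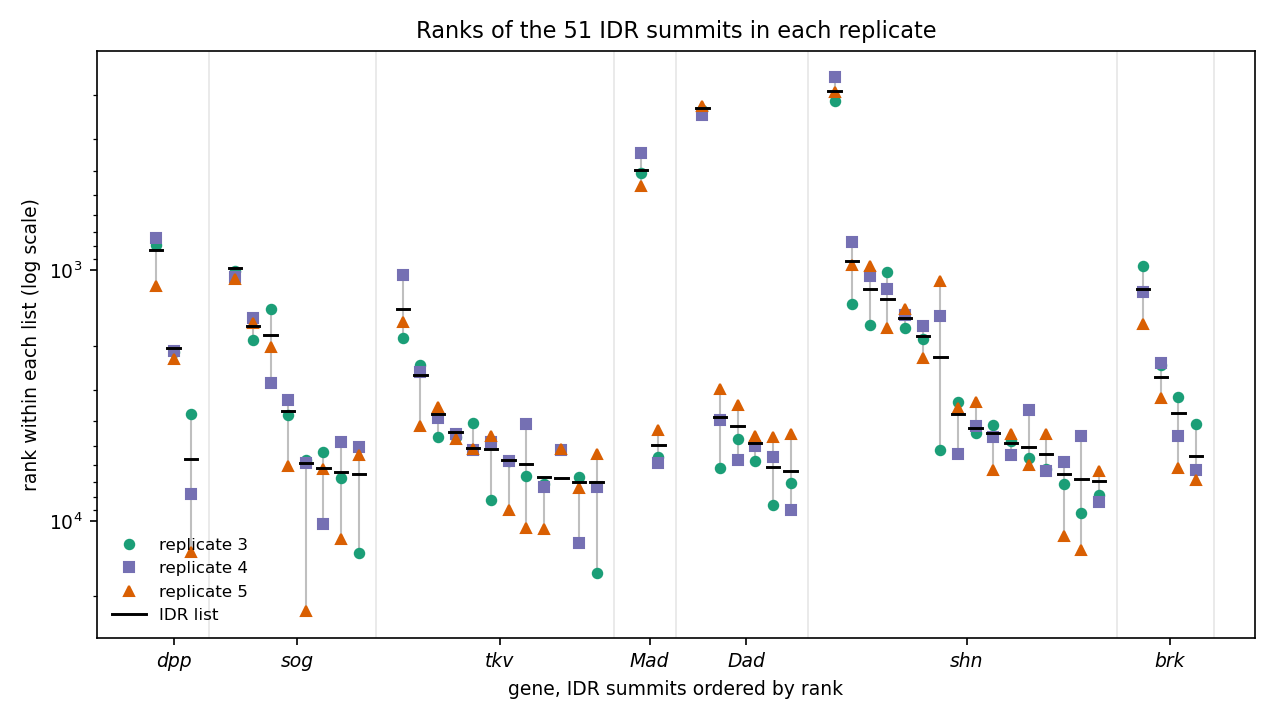
Ranks of the 51 IDR summits in each replicate (y axis, log scale, strongest at the top), ordered within each gene by their rank in the IDR list (black bars). The best sites of shn, Dad and Mad stand above the rest, and the highest ratios of worst to best replicate rank are at the shn promoter site ranked 5217, 1525 and 1099 and the sog site ranked 5691, 5890 and 22891.

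The DNA at the summits was rich in A and T. The median GC content of the 51 windows was 31.7%, from 17.8 to 53.5%, against 29.7% for all IDR windows, and 31.8% ± 0.756 in the replicates (SD, n = 3). At 41 of the 51 the window had less GC than the territory of its own gene. At dpp all 3 summits, from 22.8 to 31.7%, were below the 43.8% of the territory. The same count over all IDR windows was not made. Their median of 29.7% was also below the 42.6% of windows tiling the arms, so low GC is not particular to these genes. TAATTA, a homeodomain word, was in 7 of 51 windows (13.7%, 95% Wilson interval 6.81 to 25.7; 12.2% ± 5.72 in the replicates, SD, n = 3), against 11.4% of all IDR windows and 6.47% of windows tiling the arms. It was at 4 sites of shn, 2 of tkv and 1 of sog. CAATTA was in 2 windows (3.92%, 1.08 to 13.2), against 11.2%, and AATATT in 11 (21.6%, 12.5 to 34.6), against 21.1%. GAGAGAG was in 3 (5.88%, 2.02 to 15.9; 3.44% ± 3.17 in the replicates, SD, n = 3), against 1.02% of all IDR windows. Among pooled windows outside the IDR list 1.90% held it. The 3 windows were at shn, brk and sog, at the low IDR ranks of 6800, 5493 and 5852. CAGGTA, at sog, and TATCGATA, at tkv, were each in 1 window (1.96%), against 1.74 and 0.92% of all IDR windows. GGCGCC and GGCGTC were in none, against 1.11 and 0.836%. AGATAAG and GTCTAGAC were likewise in none, against 1.78 and 0.0697%; 0 of 51 allows up to 5.88% by the same limit of 3 counts, so no shortfall was detectable at this number.

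Of the 7 windows that held TAATTA, the 3 at tkv and sog are given because it is the word most often bound by homeodomain proteins, the class to which unpg belongs. These 3 were in introns, and capitals mark the searched words.
tkv, rank 5093, chr2L:5256112-5256212: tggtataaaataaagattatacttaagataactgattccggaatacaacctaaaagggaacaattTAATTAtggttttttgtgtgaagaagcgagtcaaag
tkv, rank 6987, chr2L:5228882-5228982: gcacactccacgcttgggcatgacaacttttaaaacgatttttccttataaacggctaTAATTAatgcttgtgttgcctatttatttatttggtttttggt
sog, rank 3636, chrX:15618087-15618187: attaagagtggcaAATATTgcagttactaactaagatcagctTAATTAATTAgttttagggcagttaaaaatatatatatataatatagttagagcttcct
These 3 were outside the 3588 strongest IDR peaks. The other 4 windows with TAATTA, all at shn and not printed, were at ranks 1301, 1834 and 4273 in introns and at rank 6478 in a promoter, so 2 of the 7 were among the 3588 strongest, 11.1% of the 18 windows there. In the sog window 2 overlapping copies of TAATTA form a run of 10 bases.

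Of 43 other genes of the pathway, in a list drawn up by function, 22 had IDR summits. The share of all protein-coding genes was 29.1%, as given above. The median of the 43 was 1 summit and 11899 bp of territory, against 3.5 summits and 18929.5 bp for the 10 genes. For all protein-coding genes it was 0 summits and 5253 bp, so the 29.1% is not matched for territory length. Among other ligands and extracellular regulators 4 of 11 had a summit, and 7 had none. The glypican genes dally and dlp, whose products carry Dpp along cell surfaces, had 7 each (6.67 ± 0.577 per replicate for both, SD, n = 3), and cv-2 (crossveinless 2), which encodes a Dpp-binding protein, had 5 (4.67 ± 0.577). The ligand gene scw and the protease gene tld, which act with dpp and sog in the early embryo, had none in the IDR or pooled list. In the Activin branch 2 of 4 had one, myo with 2 and the Smad gene Smox with 1.

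Among the other receptors 2 of 3 had a summit: wit, the type II receptor known from the neuromuscular junction, had 3 (2.67 ± 0.577, SD, n = 3) with a best rank of 732, and sax had 1 at rank 6794, while babo had none. Among intracellular regulators 4 of 7 did, led by Snoo, which encodes a Smad-binding protein of the Ski and Sno family, with 13 (10.7 ± 0.577, SD, n = 3) in 93.5 kb. The coactivator gene nej had 3, best rank 209, and the corepressor gene gro, with which Brinker acts, had 2, best rank 186. Among targets 10 of 18 did: ush, which encodes a cofactor of GATA factors, had 20 (16 ± 1, SD, n = 3) with a best rank of 8, tup 5, and bi and Doc2 3 each. The other 8 targets had none.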

How the data were processed

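The data were 5 peak lists on dm6. Per the deposited file listing, the authors made 1 list from the alignments of each replicate and 1 from the 3 replicates pooled, with a shared control that was not analysed here, and an optimal IDR list. Aligner, caller, versions and IDR cutoff: not given in the sources used here. The deposited signal score of each peak has no stated scale and was used only for ranks within a list. The deposited −log10 q-value was 4.37 in every IDR peak and was not used for ranks. No read counts were in the lists, so depth is unknown. Intervals cover counting error over peaks only. They treat the 51 summits as independent, although shn alone holds 16 and some are close neighbours, so they are too narrow for a statement about genes. Per the labels, fragments were 200 to 800 bp.

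Summits were assigned as described above with the Ensembl annotation, and windows were read from the RefSeq sequence of Release 6, the assembly of dm6. A summit near a TSS counted as promoter first, then as UTR or coding sequence, then as intron, and otherwise as noncoding gene or intergenic. Summits were taken from the offset in the deposited lists. A replicate rank is that of the best-ranked peak sharing 1 bp or more. Deciles are of all protein-coding genes by territory length. Code was tested on summits planted at known places. Python 3.11.15, numpy 2.4.6, scipy 1.17.1, pandas 2.3.3 and matplotlib 3.10.9 were used. The rule for named sites takes every IDR summit of genes with 5 or fewer and the 4 best of the others; other summits were named after their values were seen. The genes and lists were chosen with earlier results of these data known, and no test was run.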

Additional observations from a re-analysis of the deposited data

How the results depend on the processing

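Alternatives varied the peak set, the assignment to genes, the promoter and motif windows, the overlap rule and the replicates. With only the 3588 strongest IDR peaks, 18 summits were left at the 7 genes, 5.56% of them in promoters, with a median GC content of 30.7%, and 100% had a top peak in all replicates. The number of genes with a summit was 7 in all alternatives but 1, the gene span alone, which left 6 because brk had 0; there the median GC content was 32.7%. Leaving out each replicate kept 36 to 39 of the 51 summits, with 8.33 to 10.5% in promoters, a median GC content of 29.7 to 30.7% and TAATTA in 13.2 to 15.4% of windows; these settings keep fewer peaks by their construction. With promoters of 1000 bp the promoter share was 21.6%. In windows of 100 bp to either side TAATTA was in 21.6% and the median GC content was 34.3%. The share with a top peak in all replicates was 45.1% with 50% reciprocal overlap and 98.0% against the full replicate lists. Within 5 kb of a TSS or inside the gene, brk kept 2 summits. The other pathway genes with a summit numbered 15 to 22. No paired analysis was possible because there is 1 group.

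Of the 51 IDR peaks 9 (17.6%) had a width of 364 bp, the commonest in the pooled list, with the summit at the midpoint. At promoters lay 4 of them. Among all 7176 IDR peaks 1081 (15.1%) had that width. Whether the summits of peaks of this width are less finely placed was not tested.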

Other observations

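At put, replicates 4 and 5 shared a peak that the pooled list does not hold. Of the 7176 strongest peaks of replicate 4, 5760 overlapped one of the 7176 strongest of replicate 5, and 75 of these (1.30%) overlapped no peak in the full lists of replicate 3 and of the pooled replicates. At the Dpp signalling genes put had 1 of them and the other 9 genes none. The same count was 60 for peaks of replicates 3 and 5 and 58 for peaks of replicates 3 and 4, with 0 at these genes.

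Outside the IDR list the pooled list held 123 further summits at the 10 genes: 28 at shn, 26 at tkv, 22 at dpp, 16 at sog, 10 each at brk and Dad, 8 at Mad, 2 at put and 1 at Med. Of these 24 had the highest −log10 q-value found in the list, 11 of them at shn and 4 each at dpp and brk, and none at sog or Med. The share of all pooled peaks outside the IDR list with that value was not worked out. The 24 are therefore not a trait of these genes. Some of the 123 peaks overlapped an IDR peak and had its replicate ranks, as at Mad and brk, so not all are separate sites. By annotation 94 (76.4%) were intronic and 14 (11.4%) in promoters, close to the 78.4 and 11.8% of the IDR summits at the same genes. Both sets come from the same territories by the same rule, which adds to the intronic share. The annotation of all pooled peaks outside the IDR list was not worked out. Coding sequence held 3, at tkv and sog. The tkv summit at chr2L:5264626 also lies inside Cyp4ac1, 625 bp from the start site of that gene. The class counts coding sequence of any gene, so this summit may not be in that of tkv. The best pooled summit outside the IDR list ranked 7247, at tkv.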
